A study of Drosophila melanogaster with 2 samples.

Results

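The cytosolic ribosomal protein genes of Drosophila melanogaster are the genes whose products build the large and the small subunit of the ribosome that translates nuclear messages. They were taken by symbol, as every protein-coding gene of the Ensembl annotation whose name starts with RpL or RpS followed by a digit or by P, which gave 92 genes of 13945 protein-coding genes on the 6 chromosome arms with peaks. Of the 92, 54 are named for the large subunit (RpL) and 38 for the small subunit (RpS). Their products are needed in near-equal amounts in every cell, and many of these genes are haploinsufficient in flies, where losing 1 copy gives the slow development and short bristles called Minute. Most of them start within a run of pyrimidines at the TCT initiator, a core promoter element that takes the place of the common initiator at ribosomal protein genes, and several host small nucleolar RNA genes in their introns. Odd, the product of odd skipped, is a zinc finger transcription factor that acts as a repressor in the segmentation of the embryo.

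The study mapped where Odd sits on chromatin by ChIP-seq. An antibody to GFP pulled down chromatin of whole embryos of both sexes, collected over 0 to 16 h of development, of a transgenic line that stably expresses odd with GFP fused to its C-terminus. There is 1 group of 2 biological replicates with this 1 genotype, so no test between conditions or over samples exists, and the sources used here do not name the regulatory sequence that drives the fusion. Whole embryos of 0 to 16 h mix many cell types and stages, so a peak says neither in which cells nor when the protein was there. The values are peak lists: 4291 peaks called reproducible between the replicates by IDR, and relaxed lists of 30000 peaks for each replicate and for both pooled. A summit is the position in a peak that the caller marked as highest, and the signal value is the authors' own score for a peak, which was compared only within a list. Signal runs from 144 to 2892 in the IDR list, whose peaks are the 4291 strongest of the pooled relaxed list, so rank 1 is the strongest of 4291. The depth of each library is unknown, because lists of peaks hold no read counts. The control library was not analysed here, so whether it has signal at the starts of ribosomal protein genes was not tested.

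Odd-eGFP summits lay at the start of most cytosolic ribosomal protein genes. Of the 92 genes, 67 had an IDR summit within 500 bp of 1 of their own annotated transcription start sites (TSS), called a promoter summit here, which is 72.8% (exact 95% binomial interval 62.6 to 81.6, which covers counting of genes only). The same held for 2001 of all 13945 protein-coding genes, or 14.3%. Within the gene span or 5 kb of it, called the territory, 74 members (80.4%) and 39.8% of all genes had an IDR summit. The median gene span was 1315 bp for members and 2166 bp for all genes, and the median number of other genes with a TSS in the territory was 3 for both. Another gene's TSS lay within 500 bp of the start of 40.2% of members and 30.2% of all genes. The 67 promoter summits were 67 separate peaks, and at every one the member's own TSS was the nearest protein-coding TSS, with a tie at RpS27A, whose start is also that of Ip259.

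Both replicates showed these peaks when each was read alone. Among the 4291 strongest peaks of replicate 1, 66 members (71.7%) had a promoter summit, beside 14.4% of all genes. Among the 4291 strongest of replicate 2, 70 members (76.1%) had one, beside 15.5% of all genes. In both replicates at once it was 64 members (69.6%), beside 11.3% of all genes. In the whole pooled relaxed list, which holds background by design, it was 79 members (85.9%), beside 38.2% of all genes.

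**Figure D1:**
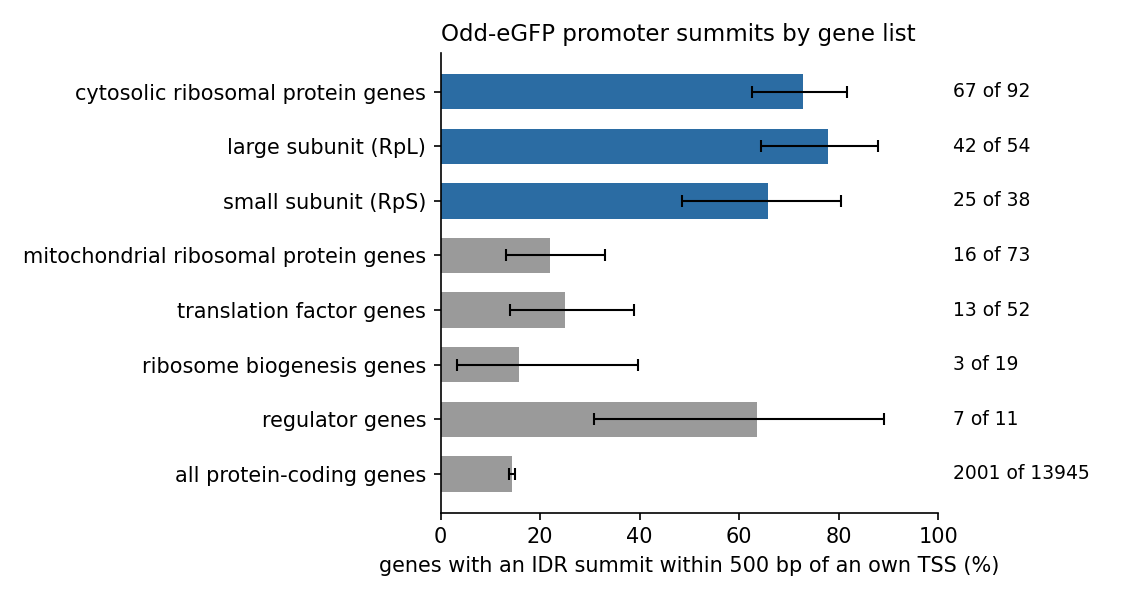
Share of genes in each list with an IDR summit within 500 bp of an own TSS, in percent, with exact 95% binomial intervals that cover counting of genes only. The cytosolic ribosomal protein genes stand at 67 of 92 and all protein-coding genes at 2001 of 13945, with the mitochondrial ribosomal protein genes at 16 of 73. The ribosome biogenesis list was taken by symbol and holds Rrp1 and pes, which are not ribosome assembly genes in flies.

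The summits sat on the start site itself. Over the 67 members the median distance from the nearest own TSS to the strongest promoter summit was -2 bp, where minus is upstream, and the range was -141 to 52 bp. It was within 50 bp at 61 members (91%), and it lay upstream at 34 and at or downstream of the TSS at 33. Over the 2001 protein-coding genes with a promoter summit the median was -136 bp, 15.8% were within 50 bp, and 1556 lay upstream. Counting only genes with a single annotated TSS, where no choice of start is possible, the median was 1 bp for 33 members, of which 87.9% were within 50 bp, and -142 bp for 979 genes, of which 13.2% were. At RpS23 and RpL23 the summit fell on the annotated first base itself. Among those beyond 50 bp were RpS15 (52 bp), RpLP2 (-81 bp), RpS9 (-112 bp), RpL34b (-115 bp) and RpS20 (-141 bp), chosen after their values were seen. At RpS20 both replicates placed the summit far upstream, at -135 and -142 bp. RpS9 has 2 annotated starts, and its summit lies between them.

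**Figure D2:**
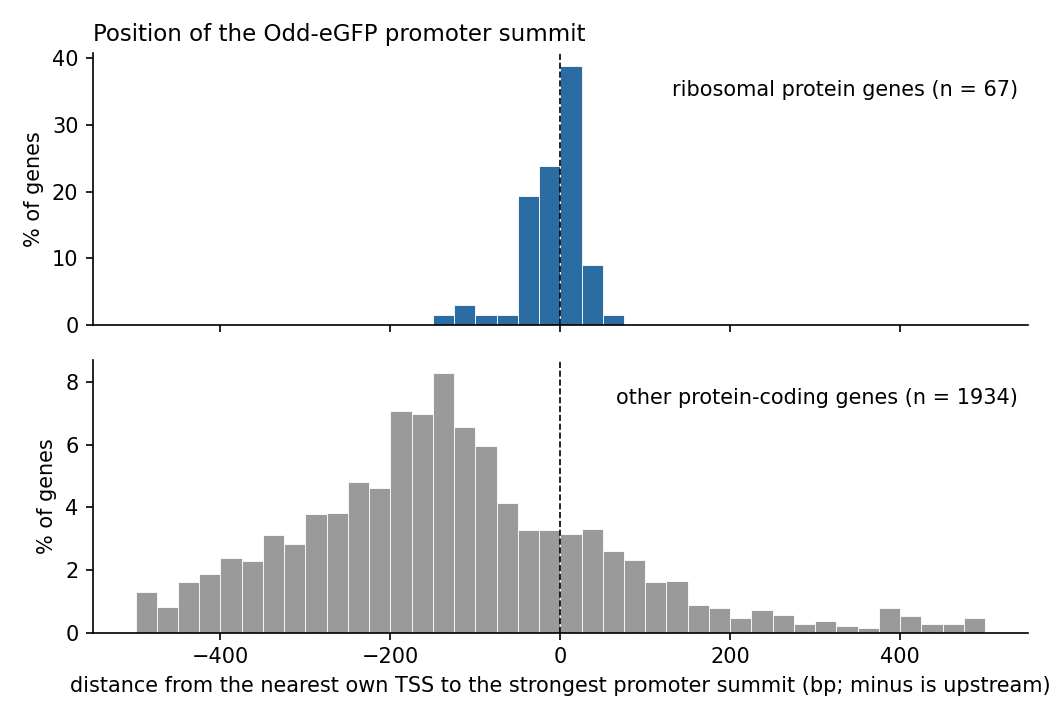
Distance in bp from the nearest own TSS to the strongest IDR summit within 500 bp, in bins of 25 bp, as percent of genes, for 67 cytosolic ribosomal protein genes (top) and the 1934 other protein-coding genes with such a summit (bottom). The vertical scales differ. Summits of ribosomal protein genes fall around 0, and those of other genes are spread with their bulk upstream.

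Members also ranked high among the peaks. Their median rank in the IDR list was 577 (59 to 3696), beside 1722 for all genes with a promoter summit, and the median signal was 459 beside 250. Among the 429 strongest IDR peaks were the promoter summits of 25 members (37.3% of the 67), beside 16.6% of all 2001 genes with one. Among the 2145 strongest were 60 members (89.6%), beside 59.5%. Counted by peaks, 74 IDR peaks (1.72%) lay within 500 bp of a member's TSS, and they made up 5.83% of the 429 strongest and 1.27% of the others. In 57 of the 67 the promoter summit was the strongest IDR summit of the whole territory. At many of these, such as RpS27, RpL7 and RpS10b, it was the only one there. The count has no share of all genes beside it, so it is not a measure of strength.

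The strongest was at RpS27, a zinc finger protein of the small subunit, with rank 59 and signal 1126. Its signal was 605 in replicate 1 (rank 55) and 512 in replicate 2 (rank 71), and the summit lay between its 2 annotated starts in every list. RpS4, also of the small subunit, had rank 95 in the IDR list. Its signal was 473 in replicate 1 (rank 119) and 502 in replicate 2 (rank 75), with the summit 5 and 13 bp downstream. RpL7, whose first annotated start lies 30 bp from that of Ripalpha, had rank 109, with a signal of 544 in replicate 1 (rank 78) and 404 in replicate 2 (rank 150). Both genes share that peak, and its summit lay between the 2 annotated starts of RpL7, -44 bp from the downstream one. RpS10b, near the path by which messages enter the ribosome, had rank 119, with a signal of 498 in replicate 1 (rank 102) and 405 in replicate 2 (rank 148). All 4 were within the 150 strongest peaks of each replicate.

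The next 6 all belong to the large subunit and ranked from 177 to 213. RpL24, which makes a bridge to the small subunit, had rank 177, with 440 in replicate 1 and 348 in replicate 2. RpL30 had rank 190, with 344 in replicate 1 (rank 275) and 422 in replicate 2 (rank 133). RpL14 had rank 201, with 415 in replicate 1 and 334 in replicate 2, and its summit lay within 3 bp of the TSS in the IDR list and in both replicates. RpL19, another bridge protein, had rank 209, with 395 and 341. RpL28, which is absent from the ribosome of Saccharomyces cerevisiae, had rank 212, with 365 and 362, and its start is 381 bp from that of eIF1. RpL31, which lies near the exit of the nascent chain, had rank 213, with 337 and 394. Signal values of different lists are not on 1 scale, so they do not say in which replicate a gene was the higher.

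The start sequences show where these summits fall. The following are 100 bases before the TSS nearest to the summit and 20 from it on, in the sense of the gene, from the NCBI Release 6 sequence (dm6), with the words searched below in capitals. CTTT is marked only where its C lies within 5 bases of the TSS.
RpS4, chr3L:13041701-13041820, plus strand: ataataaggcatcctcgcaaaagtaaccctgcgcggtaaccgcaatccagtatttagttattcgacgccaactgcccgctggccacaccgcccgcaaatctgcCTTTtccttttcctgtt
RpL7, chr2L:10201000-10201119, plus strand: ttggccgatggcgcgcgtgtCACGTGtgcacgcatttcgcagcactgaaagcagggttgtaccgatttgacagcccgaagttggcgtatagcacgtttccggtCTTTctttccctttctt
RpL14, chr3L:8600906-8601025, plus strand: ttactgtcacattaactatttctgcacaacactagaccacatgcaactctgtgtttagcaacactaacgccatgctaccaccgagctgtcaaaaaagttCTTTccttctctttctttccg
RpL28, chr3L:3222941-3223060, minus strand: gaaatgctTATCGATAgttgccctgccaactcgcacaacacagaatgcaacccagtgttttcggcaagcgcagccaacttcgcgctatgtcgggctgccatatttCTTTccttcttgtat
Of the 16 bases from 5 before to 10 after the TSS, 75% were C or T at RpS4, 87.5% at RpL7, 87.5% at RpL14 and 81.2% at RpL28. The IDR summit was at position 13041806 for RpS4, 10201056 for RpL7, 8601004 for RpL14 and 3222997 for RpL28. The summits of RpS4 and RpL14 thus fall within 5 bases of the TSS, and those of RpL7 and RpL28 in the bases before it.

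Genes of the large subunit had a promoter summit in 42 of 54 cases (77.8%) and those of the small subunit in 25 of 38 (65.8%), with overlapping intervals of 64.4 to 88 and 48.6 to 80.4. Where present, the median rank was 446 for the large and 939 for the small subunit, and the ranges overlapped, from 109 to 3696 and from 59 to 2596. Of the 25 members among the 429 strongest peaks, 20 were of the large subunit and 5 of the small. The position was alike, with a median of -3.5 bp for the large subunit and 1 bp for the small. The difference between the subunits was not tested.

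**Figure D3:**
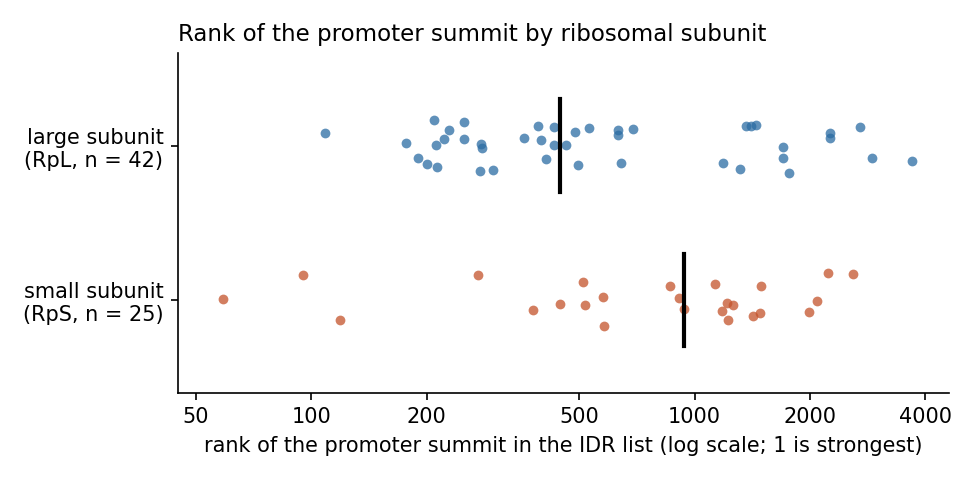
Rank of the promoter summit in the IDR list, on a log scale, for 42 large and 25 small subunit genes. Each point is a gene, black lines are medians (446 and 939), and the vertical scatter within a row carries no value.

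The stalk of the large subunit, where elongation factors bind, is built of P0, P1 and P2, and all 3 genes had a promoter summit of different strength. RpLP0 had rank 250 in the IDR list, with a signal of 372 in replicate 1 and 292 in replicate 2. RpLP1 had rank 411, with 305 and 238. RpLP2 had rank 2250, with 107 and 115, and a stronger summit of rank 968 lay elsewhere in its territory. The pair that carries ubiquitin fused to a ribosomal protein differed. RpS27A had rank 1488, with a signal of 111 in replicate 1 (rank 2345) and 159 in replicate 2 (rank 1126), at a start shared with Ip259. RpL40 had no IDR promoter summit. It had a peak 26 bp downstream of its TSS at rank 7072 of the pooled relaxed list, with signals of 57.5 in replicate 1 (rank 7135) and 39 in replicate 2 (rank 12197), outside the 4291 strongest of either. The only IDR summit in its territory, of rank 2913, was nearest to the TSS of CG3702.

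Other members with known roles, chosen after their values were seen, spread over the whole range of ranks. RpL3, near the centre where peptide bonds form, had rank 487. RpL11, which binds the small 5S RNA of the large subunit, had rank 275, while its partner RpL5 had none in the IDR list. RpS6, the substrate of the kinase S6k, had rank 2092, with 131 in replicate 1 and 93.5 in replicate 2. RpS3, at the entry of the message, had rank 2596, with 93.3 and 97.3. The weakest was RpL10, which joins the large subunit late in its assembly, at rank 3696.

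Further genes of the large subunit filled the ranks between. RpL13 (222), RpL13A (229), RpL41 (277) and RpL4 (279) were near the front, and RpL41 is the shortest protein of the ribosome. RpL32 (390), the rp49 gene long used as a reference for fly transcripts, had 302 in replicate 1 and 261 in replicate 2. RpL8 (397), RpL17 (429), RpL23A (461), RpL18 (497) and RpL9 (532) followed, of which RpL23A is a docking site at the exit of the nascent chain. RpL27 (630), RpL35A (633), RpL27A (644) and RpL37A (692) came next. Lower were RpL7A (1189), RpL39 (1314), RpL23 (1401), RpL12 (1447), RpL36 (1701), RpL26 (1704), RpL35 (1758), RpL29 (2262) and RpL38 (2901). At 8 of these 9 the signal was listed in both replicates, RpL26 being the exception.

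Of the small subunit, RpS25 (273) was the only other gene among the 429 strongest besides RpS28b (379). RpS25 had 370 in replicate 1 and 296 in replicate 2. RpS7 (519), RpS16 (577) and RpS18 (582) followed, and RpS18 had 279 in replicate 1 and 179 in replicate 2. RpS21 (861), RpS12 (912), RpS23 (939), RpS15 (1129), RpS29 (1180), RpS20 (1417) and RpS3A (1481) ranked lower. RpS12, which in flies also acts in the removal of Minute cells by cell competition, had 185 in replicate 1 and 175 in replicate 2. The position of the summit at these genes was within 52 bp of the TSS, with RpS20 as the exception named above.

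The replicates gave the members nearly the same order. Over the 66 members with an IDR promoter summit and a promoter peak in both relaxed lists, Spearman's rho between the 2 signals was 0.918. The points are genes that share the 2 libraries. They were selected for a strong signal in both replicates pooled and for a peak in each, so rho is a description. The summits of the 2 replicates lay a median of 15.5 bp apart, and 101 bp at most. Of the 67 members, 64 were among the 4291 strongest peaks of both replicates. RpL10 was there in replicate 1 only, with rank 2882 beside 5788 in replicate 2. RpS9 was there in replicate 2 only, with rank 1297 beside 6527 in replicate 1. RpL26 had rank 1586 in replicate 2 and no promoter peak in the relaxed list of replicate 1. RpL36 was called in both but at distant ranks, 1197 and 3623. A further 5 members had a promoter summit among the strongest of 1 replicate and none in the IDR list. They were RpS30 (rank 3406 in replicate 1), RpS26 (2990), RpL6 (3118), RpS13 (3397) and RpL7-like (3953), the last 4 in replicate 2.

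**Figure D4:**
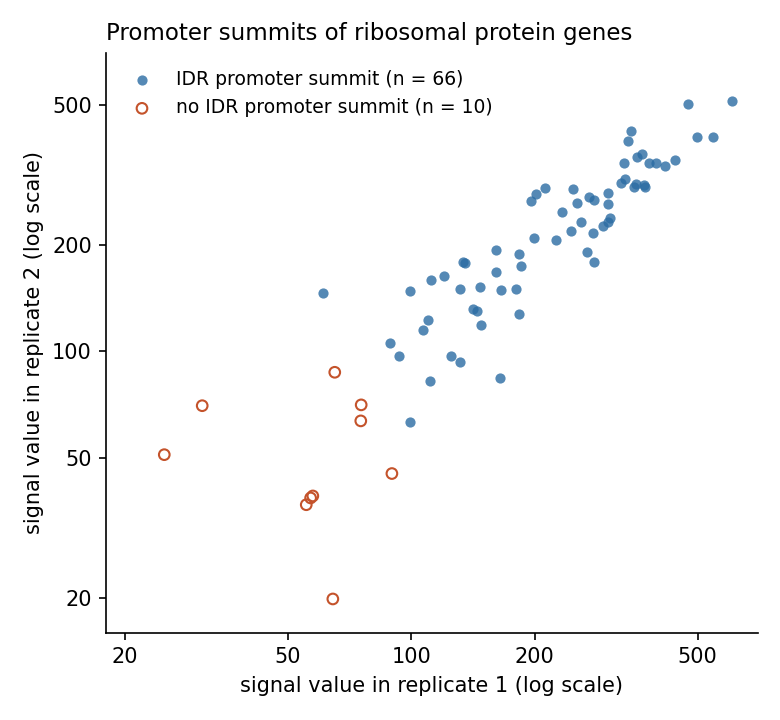
Signal value of the promoter summit in replicate 1 against replicate 2, both on log scales, for 66 members with an IDR promoter summit (filled) and 10 with a promoter peak in both relaxed lists but none in the IDR list (open). A gene lacking a peak in either relaxed list is not drawn. The filled point at the left is RpS9.

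Paralogs divided by copy. In Drosophila several ribosomal proteins have a widely used gene and a further copy, often one expressed mostly in the germ line, and which is which was taken from general knowledge and not from these files. All 11 widely used copies (RpS5a, RpS10b, RpS15Aa, RpS19a, RpS28b, RpL10Ab, RpL37-1, RpL22, RpL7, RpL24 and RpLP0) had an IDR promoter summit. None of the 12 further copies had one: RpS5b, RpS10a, RpS15Ab, RpS19b, RpS28a, RpS28-like, RpL10Aa, RpL37-2, RpL22-like, RpL7-like, RpL24-like and RpLP0-like. RpL7-like, RpL24-like and RpLP0-like are relatives of the yeast ribosome assembly factors Rlp7, Rlp24 and Mrt4, and the symbol rule takes them in. They are thus not less used copies of RpL7, RpL24 and RpLP0 in the sense above, but the counts of 11 and 12 include these pairs. Beside the background of 14.3%, a count of 0 of 12 has an exact 95% binomial interval of 0 to 26.5%. The division between copies was not tested. Without these 12, 67 of the other 80 members (83.8%) had a promoter summit.

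Among the 4291 strongest peaks of each replicate were all 11 widely used copies, and of the 12 further copies 0 in replicate 1 and 1 in replicate 2, RpL7-like. RpS10b had a signal of 498 in replicate 1 and 405 in replicate 2, while RpS10a had 24.9 (rank 24778) and 51 (rank 8131). RpS5a had 278 and 217, while RpS5b had no promoter peak in replicate 1 and 26.6 (rank 20337) in replicate 2. RpS28b had 280 and 269, while RpS28a had 55.4 and 36.8, with summits 296 bp downstream and 396 bp upstream of its TSS. RpLP0-like had 64.3 in replicate 1 and 19.9 in replicate 2, with the summit 84 and 90 bp upstream, and the start of 14-3-3zeta lies 87 bp from its own. RpL7-like had no promoter peak in replicate 1 and 79.6 (rank 3953) in replicate 2, close to RpL10Ab (82.7, rank 3714), with the summit 269 bp upstream. The 7 others, namely RpS15Ab, RpS19b, RpS28-like, RpL10Aa, RpL37-2, RpL22-like and RpL24-like, had no promoter peak in any of the 3 relaxed lists. Among widely used copies the weakest was RpL10Ab, with rank 2707 and signals of 111 and 82.7, the next RpL37-1 with rank 1362, and the others ranked 1226 or better, RpS15Aa at 1226, RpL22 at 299 and RpS19a at 445.

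**Figure D5:**
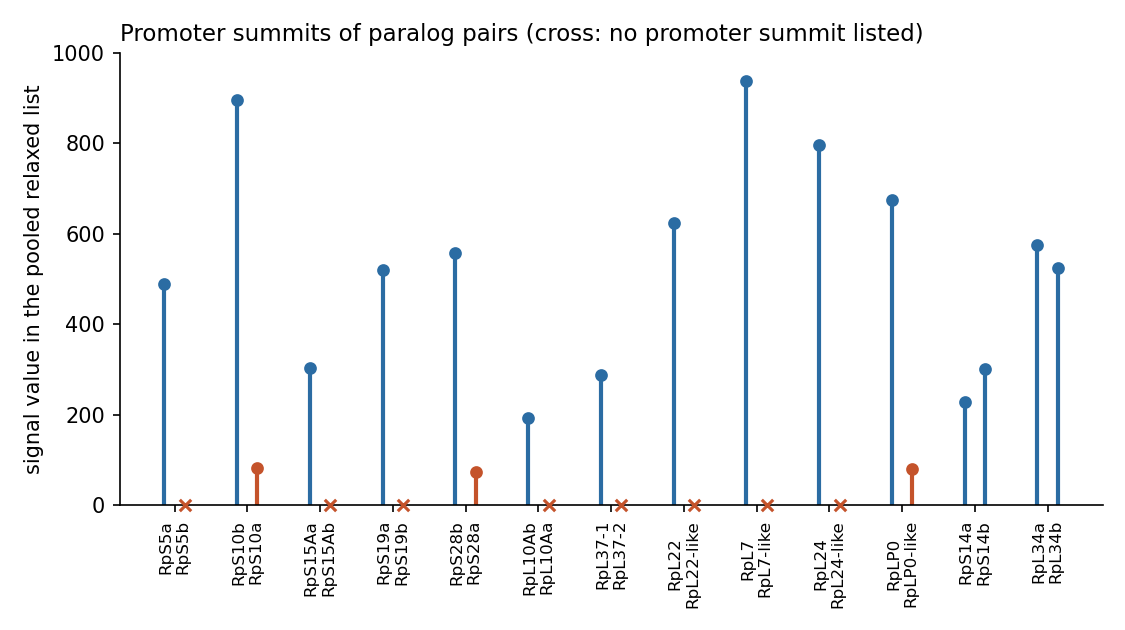
Signal value of the promoter summit in the pooled relaxed list for both genes of 13 pairs, with the widely used copy in blue and the further copy in red. RpS14a, RpS14b, RpL34a and RpL34b are all in blue. Crosses mark genes with no promoter summit in that list. RpS28-like, a further copy of RpS28b with none, is not drawn.

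In 2 pairs both genes carried a promoter summit. They were kept out of the count above because neither gene of these pairs is known as the less used copy, a choice made with the earlier results known. Counting their second-named genes, RpS14b and RpL34b, as further copies gives 2 of 14. RpS14a and RpS14b, whose starts lie 1156 bp apart on the X, had ranks 1988 and 1258, with 110 and 147 in replicate 1 and 123 and 152 in replicate 2. RpL34a and RpL34b, at distant sites of arm 3R, had ranks 359 and 431, with 303 and 249 in replicate 1 and 282 and 288 in replicate 2. Reads that match several places could blur copies. Within 250 bp of the start, all stretches of 50 bases occurred once in the genome for 91 of the 92 members, and 92.5% of them for RpS15Ab, the exception. The sources used here do not say how reads with several matches were treated, and whether shared reads blurred the copies was not tested.

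The starts of 4 such pairs, in the same frame as above, are shown because the copies differ in their summits while encoding related proteins.
RpS10b, chrX:19597931-19598050, plus strand, with summit: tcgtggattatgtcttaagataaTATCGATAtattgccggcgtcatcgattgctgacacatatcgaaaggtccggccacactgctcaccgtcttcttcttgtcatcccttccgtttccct
RpS10a, chr3R:27652660-27652779, plus strand, without: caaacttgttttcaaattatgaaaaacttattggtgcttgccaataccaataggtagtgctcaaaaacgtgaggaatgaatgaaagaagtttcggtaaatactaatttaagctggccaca
RpS19a, chrX:16637794-16637913, plus strand, with summit: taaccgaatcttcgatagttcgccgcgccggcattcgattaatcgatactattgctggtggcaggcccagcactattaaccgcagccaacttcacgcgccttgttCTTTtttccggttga
RpS19b, chr3R:23933511-23933630, minus strand, without: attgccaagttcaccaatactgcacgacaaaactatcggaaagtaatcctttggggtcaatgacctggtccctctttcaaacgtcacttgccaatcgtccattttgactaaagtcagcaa
RpL10Ab, chr3L:11822751-11822870, plus strand, with summit: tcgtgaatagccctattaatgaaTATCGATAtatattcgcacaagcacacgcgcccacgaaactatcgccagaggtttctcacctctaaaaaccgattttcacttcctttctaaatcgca
RpL10Aa, chr3R:15037266-15037385, plus strand, without: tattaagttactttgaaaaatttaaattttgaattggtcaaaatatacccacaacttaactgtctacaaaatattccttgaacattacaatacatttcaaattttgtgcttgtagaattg
RpS5a, chrX:17148245-17148364, minus strand, with summit: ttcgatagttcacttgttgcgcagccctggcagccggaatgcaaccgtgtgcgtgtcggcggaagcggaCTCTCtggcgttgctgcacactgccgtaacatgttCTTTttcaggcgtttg
RpS5b, chr3R:14901544-14901663, minus strand, without: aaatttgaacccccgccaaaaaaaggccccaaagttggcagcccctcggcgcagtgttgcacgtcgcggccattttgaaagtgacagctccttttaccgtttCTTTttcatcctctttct
Over the same 16 bases the share of C and T was 87.5% at RpS10b and 43.8% at RpS10a, 81.2% at RpS19a and 62.5% at RpS19b, and 87.5% at RpL10Ab and 68.8% at RpL10Aa. RpS5b had CTTT and 81.2%, beside 75% at RpS5a, and still no IDR summit. At the start with the highest share, the median share of C and T was 81.2% for the 92 members, 59.4% for the 12 further copies and 56.2% for all protein-coding genes.

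Of the 25 members without an IDR promoter summit, 12 are the further copies and 13 are other genes. Of these 13, 9 had a peak in the pooled relaxed list, at ranks 4396 to 19048, and its summit was again near the TSS, with a median absolute distance of 26 bp (3 to 165). RpL15 lay just outside the IDR list, with pooled rank 4396 and signals of 75.2 (rank 4618) and 63.6 (rank 5744) in the replicates. RpS2 was close as well, with pooled rank 4751 and signals of 75.4 and 70.6. The last members inside the list of 4291 were RpL10 at 3696 and RpL38 at 2901. RpS30, RpL40, RpS13, RpL6, RpL5 and RpL21 followed at pooled ranks 6178, 7072, 7189, 7263, 7502 and 19048. RpS26 and RpS24 had a promoter peak in replicate 2 only, with ranks 2990 and 6613. RpL36A had none in any of the 3 relaxed lists, which says that no peak was listed there and not that Odd is absent.

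Of the 25, 7 had an IDR summit in the territory, nearest to the TSS of a neighbour each time. The neighbours and ranks were Bka (1130) for RpS2, Mgat2 (1338) for RpS28a, CG5854 (1533) for RpS19b, CG7627 (2090) for RpS13, CG1774 (2555) for RpL6, CG3702 (2913) for RpL40 and CG2852 (3497) for RpS24. Among the 18 with none in the territory were RpL5, RpL10Aa, RpL15, RpL21, RpL22-like, RpL24-like, RpL36A, RpL37-2, RpL7-like, RpLP0-like, RpS5b, RpS10a, RpS15Ab, RpS26, RpS28-like and RpS30. RpL15, RpL5 and RpL21 stand in regions with hardly any IDR peak, next to the centromere of their arms. The nearest IDR summit was 4172 kb from RpL15, 500 kb from RpL5 and 211 kb from RpL21, and these genes lie 0.843, 0.977 and 1.27 Mb from the end of the arm's sequence. The summit nearest to RpL15 is that of another member, RpL10 (rank 3696). Whether the missing summits go with this location was not tested.

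Where the genes lie also differed in the counts. All 14 members on the X and 13 of 14 on 3L had a promoter summit, with 15 of 21 on 2R, 14 of 23 on 3R, 10 of 19 on 2L and RpS3A, the only one on chromosome 4. Among all genes the share per arm ran from 12.5% to 15.3%. Of the 12 further copies none is on the X or 3L, 6 are on 3R, 4 on 2R and 2 on 2L. At 10 members a stronger IDR summit lay elsewhere in the territory. Named by the nearest TSS, examples are Tre1 (rank 131) beside RpL35, Idh3g (196) beside RpL27 and CG17726 (266) beside RpL3. Others are CG9743 (417) beside RpS7, Sec13 (544) beside RpS3 and Ubr3 (774) beside both RpS14 genes. These summits lie 1142 bp from the TSS of Tre1, 568 bp from that of Sec13 and 2362 bp from that of Ubr3. At Idh3g, CG17726 and CG9743 they lie within 500 bp. RpL12 and RpL39, whose starts are 2053 bp apart, each had an own summit, of ranks 1447 and 1314.

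Promoter summits of genes of related function were counted in the same way, beside the 14.3% of all protein-coding genes, and the difference between lists was not tested. Of the 73 mitochondrial ribosomal protein genes, which build the separate ribosome of mitochondria, 16 (21.9%, 13.1 to 33.1) had one. The strongest were mRpS23 (rank 17), mRpS10 (28) and mRpL41 (35), all stronger than any cytosolic member, but at -379, -127 and -139 bp from the TSS. Of those 16, none was within 50 bp, and the median was -144 bp. Of 52 translation factor genes, 13 (25%, 14 to 38.9) had a promoter summit, led by eIF4EHP (rank 45, -234 bp), eIF6 (90, -107 bp) and eEF1gamma (138, -19 bp). Of these 13, 7 were within 50 bp, and the elongation factors eEF2 (rank 536, 2 bp), eEF1alpha1 (1019, -27 bp) and eEF5 (1761, 21 bp), chosen after their values were seen, were among them. The summit of eIF1 is that of RpL28. Of 19 genes taken by symbol as a list for ribosome assembly, 3 (15.8%, 3.38 to 39.6) had one, close to the share of all genes. They were Rrp1 (646), pes (1191) and Surf6 (2265), all over 200 bp upstream. In flies the symbols Rrp1 and pes name a DNA repair enzyme and a scavenger receptor, not ribosome assembly factors. The share of this list is thus not that of ribosome assembly genes, and of the 3 only Surf6 is one.

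Of 11 genes named as regulators of ribosomal protein genes or of growth, 7 (63.6%, 30.8 to 89.1) had a promoter summit, beside 14.3% of all genes, and all 11 an IDR summit in the territory, beside 39.8%. The strongest were REPTOR (rank 163), a factor held back by TOR signalling, Dref (222), which binds the DNA replication-related element (DRE), and M1BP (345), which binds the promoter word called Motif 1. The Dref summit is that of RpL13, whose start lies 84 bp away, and it was 91 bp from the Dref TSS and 7 bp from that of RpL13. The territories of these regulators also reach neighbours, and the list is short.

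Short words in the start sequence were counted as a description of the sequence alone, from 250 bases before to 50 after the 5' end of the gene, on both strands unless stated. CTTT on the sense strand with its C within 5 bases of the TSS, the core of the TCT initiator, was at 33.7% of members and 5.64% of all genes. When any annotated TSS was allowed, a choice made after the data were seen, it was at 63% of members and 8.07% of all. TATCGATA, the DRE, was at 30.4% of members and 9.36% of all genes, and GGTCACAC, the core of Motif 1, at 15.2% and 7.7%. TATAAA on the sense strand was at 33.7% and 32.1%, GAGAG, the word of the GAGA factor, at 17.4% and 29.7%, and CACGTG, an E-box such as Myc and Max bind, at 8.7% and 4.2%. CAGGTA, the word of Zelda, was at 4.35% and 6.24%. ACAGTAGC, a word reported for Odd, was in 0 of 92 members and in 0.523% of all genes, and a missing word says only that these letters are not in this window. No word contains another.

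Within 100 bp of the promoter summit, TATCGATA was at 25.4% of the 67 members and 5.6% of the 2001 genes, CACGTG at 16.4% and 2.85%, and GGTCACAC at 13.4% and 3.45%. CTTT anywhere in that window was at 98.5% and 68%, and TATAAA at 10.4% and 24.2%. CAGGTA was at 0 of the 67 and 3.75% of the 2001, and ACAGTAGC at 0 and 1.1%. The summit lay at a median of -2 bp from the TSS for the 67 and -136 bp for the 2001. The windows thus cover different parts of the promoter in the compared sets. CTTT at the TSS and the promoter summit did not always go together. Among members, 47 of 58 with CTTT at an own TSS (81%) and 20 of 34 without (58.8%) had a promoter summit, and the median absolute distance was 16 and 17 bp. The further copies weigh on these shares, as none of the 12 had a promoter summit, and 9 lacked the word while 3 had it. Of the 13 other members without a promoter summit, 8 had the word and 5 lacked it. Among other protein-coding genes, 207 of 1067 with CTTT at an own TSS (19.4%) and 1727 of 12786 without (13.5%) had one, and 13.5% and 13.1% of those summits were within 50 bp. The median absolute distance of these other genes was 154 bp with the word and 164 bp without it. The difference between these groups was not tested.

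A snoRNA gene lay on the same strand inside 28 members, and 23 of those (82.1%) had a promoter summit, beside 44 of the 64 members without (68.8%). Of the 56 other protein-coding genes with a snoRNA inside, 22 (39.3%) had one. These counts, like the others, were not tested against each other. None of the 12 further copies had a promoter summit, which weighs on the shares of members. How these copies divide between members with and without a snoRNA gene is not given here.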

How the data were processed

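The deposited values are the authors' signal value, a score per peak, and the summit offset in bp, from 4 dm6 peak lists: 1 relaxed list for each replicate, 1 for both pooled, and the IDR list made from them, per the text records deposited with the libraries. The sources used here name no caller, aligner or IDR threshold. Summits (1-based) were set against genes of Ensembl release 115 and, for letters, the NCBI Release 6 genome with Python 3.11.15, pandas 2.3.3 and scipy 1.17.1. A summit counted for a gene within 500 bp of an own TSS or within 5 kb of its span. Intervals are exact binomial (Clopper-Pearson) and cover counting only. Depth is unknown, so its precision cannot be given. The finding of promoter summits and their distances was tested on simulated summits placed near the starts of members. The counts of words and of territories were not tested in this way.

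The members, lists, words and alternatives were chosen with earlier results of these data known. Named genes are the 10 strongest members, members without a summit, paralogs, stalk and ubiquitin fusion genes, the 3 strongest of each other list, and neighbours that share a summit. Some members are counted but not reported by name here. Of the lists, mfl and Tor were not found. The alternatives were other distances, lists and starts, and each replicate alone.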

Additional observations from a re-analysis of the deposited data

How the results depend on the processing

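No paired analysis was possible because there is 1 group and no test. The counts of members stayed within 1.5 times the reported ones under every alternative run. They were 66 to 86 with a summit in the territory, 60 to 79 with one at the promoter, and 54 to 69 in both replicates. The 86 and 79 are of the pooled relaxed list, which holds more than the IDR peaks. Over the same settings the share of all genes ran from 16.9% to 72.2%, from 8.53% to 38.2% and from 6.91% to 18.3%, highest in the pooled relaxed list for the first 2. Leaving out a replicate gave 75 to 78, 66 to 70, a median distance of -7 to 1.5 bp and a median rank of 599 to 636. Against the 5' end of the gene span the median distance was 7 bp. Without the 12 further copies, a choice made after the data were seen, the promoter count was 67 of 80. Words shifted when the window moved from the 5' end of the 92 genes to 100 bp around the summit of 67. CTTT, no longer bound to the TSS, was at 98.5% (68% of the 2001 genes with a promoter summit), TATAAA at 10.4% (24.2%), CACGTG at 16.4% (2.85%) and CAGGTA at 0% (3.75%). These windows lie around the TSS for the 67 and mostly upstream of it for the 2001. With any own TSS, also chosen afterwards, CTTT was at 63% (8.07% of all genes), CACGTG at 16.3% (5.3%) and CAGGTA at 7.61% (8.43%). The lists give no depth, so a gene without a listed peak may have had one below the limit of 30000 peaks.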
